A study of Mus musculus with 9 samples.

Results

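Interleukin-2 (IL-2), its receptor and the STAT5 branch of its signalling were followed through 10 named genes: the ligand gene Il2, the receptor chain genes Il2ra, Il2rb and Il2rg, the transcription factor genes Stat5a and Stat5b, and the STAT5 target genes Cish, Socs1, Pim1 and Pim2. All 10 were found, by Ensembl identifier and mouse symbol, among the 55536 genes of the count table, and all 10 were among the 14684 genes that passed the filter on low counts. The libraries came from CD4+ T lymphocytes (mainly helper T cells) isolated from spleens of male mice 6 to 12 weeks old whose own genotype is labelled WT. Every culture received beads against CD3 and CD28 and 5 ng/mL recombinant murine IL-2 for 18 h.

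In EKO_exo cultures the cells were also given exosomes (small secreted vesicles) of EKO-BMDM, which the series describes as bone marrow of ApoE-deficient mice. In WT_exo cultures they were given exosomes of WT-BMDM, from wild-type mice, and in PBS cultures buffer alone. Both kinds of exosomes were dosed at 2e+09 particles per mL, with 3 libraries in each group. The abbreviation BMDM usually stands for macrophages grown from bone marrow. ApoE is apolipoprotein E, a carrier of lipids. No culture lacked beads or IL-2, so the levels describe activated, IL-2-treated cells, and PBS cultures were given no vesicles of any kind.

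IL-2 is the main growth factor of activated T cells. Its receptor is built from an alpha chain that raises affinity for the ligand (Il2ra, also known as CD25), a beta chain (Il2rb) and the common gamma chain (Il2rg), which several other cytokine receptors share. The beta and gamma chains carry the kinases JAK1 and JAK3. These kinases lead to phosphorylation of STAT5A and STAT5B, which then enter the nucleus and switch on target genes, among them Il2ra itself, the inhibitors of cytokine signalling Cish and Socs1 and the survival kinases Pim1 and Pim2. STAT5 also lowers transcription of Il2. Phosphorylation of STAT5 is not seen in mRNA data. Recombinant IL-2 is a protein and adds nothing to the Il2 mRNA count.

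The libraries held 25792975 to 32971791 counts. On the first principal component of log2 CPM (the count relative to the scaled size of its library), which held 28.9% of the variance, the 6 exosome libraries lay between -8.97 and -2.47 and the 3 PBS libraries between 7.07 and 10.3. EKO_exo replicate 1 stood apart on the second component (11.1, the other 8 libraries -5.53 to 3.46) and EKO_exo replicate 3 on the third (-12.4, the others -0.454 to 3.64). T cell markers were present throughout, Cd3e at 515 ± 22.5 CPM in EKO_exo, 470 ± 9.15 in WT_exo and 475 ± 8.14 in PBS and Cd4 at 886 ± 9.88, 826 ± 5.60 and 868 ± 18.0 CPM in the same order (SD, n = 3 each). B cell markers were present too: 8 of 8 were detected, with a summed level of 698 to 710 CPM in EKO_exo, 607 to 665 in WT_exo and 603 to 649 in PBS. Macrophage and monocyte markers summed to 24.8 to 29.6 CPM in EKO_exo, 22.6 to 29.7 in WT_exo and 19.4 to 29.6 in PBS. Of the 4 that were tested, 1 was called in EKO_exo against PBS. It was Csf1r, higher at 2.28 ± 0.311 CPM against 0.870 ± 0.217 (adjusted p = 0.0476). The CD8 genes Cd8a and Cd8b1 summed to 9.57 to 10.4 CPM in EKO_exo, 8.31 to 10.2 in WT_exo and 11.2 to 12.3 in PBS. In such bulk samples fewer cells of a type and less RNA per cell cannot be told apart.

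Between genes, levels were compared as CPM per kilobase of summed exon. Il2ra stood highest, at 326 ± 14.3 in EKO_exo, 321 ± 4.42 in WT_exo and 349 ± 0.467 in PBS (SD, n = 3 each). Il2rb followed at 293 ± 10.1, 280 ± 4.86 and 298 ± 9.76, while the third chain, Il2rg, reached 111 ± 2.42, 99.98 ± 0.495 and 100.4 ± 3.15. Among the targets, Pim1 and Pim2 lay next below Il2rb, at 196 ± 2.43 and 166 ± 1.98 CPM per kb in EKO_exo. Cish and Socs1 were lower, at 100.5 ± 4.68 and 72.7 ± 5.42 in EKO_exo, followed by Stat5b (56.0 ± 0.996) and Stat5a (51.9 ± 0.710). Il2 was lowest of the 10, at 19.6 ± 2.75 in EKO_exo, 19.8 ± 0.279 in WT_exo and 19.7 ± 1.95 in PBS. Neighbours in this order whose ranges over the 9 libraries overlapped were Pim1 and Pim2, Il2rg and Cish, and Stat5b and Stat5a; the other 6 neighbouring pairs did not overlap.

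**Figure D1:**
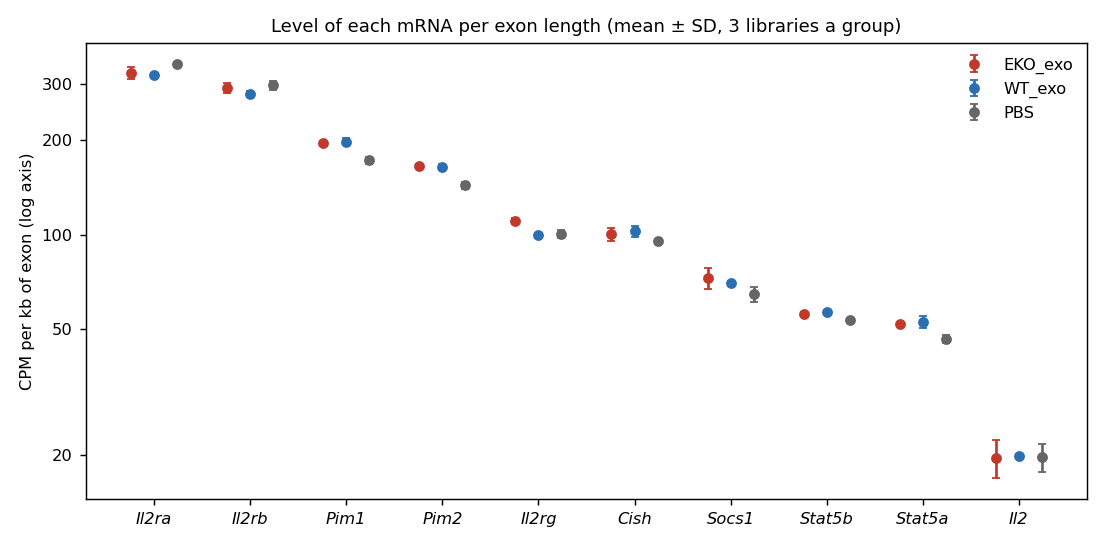
Level of each mRNA in CPM per kb of exon (log axis), as mean ± SD of the 3 libraries of EKO_exo, WT_exo and PBS. Il2ra and Il2rb stand at the top and Il2 at the bottom, near 20, in every group.

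The exon length used for Il2rg (2387 bases, chromosome X, 101264378 to 101268255, build GRCm38) includes 728 bases that the annotation also gives to Gm20489, a transcript of the same strand with 0 counts in all libraries. If reads in that stretch were set aside as ambiguous, the level of Il2rg per kilobase would be too low; the counting rule is not given in the sources used here. Stat5a (chromosome 11, 100859351 to 100885169) and Stat5b (chromosome 11, 100780731 to 100850724) are neighbouring paralogs. They share 608 stretches of 50 bases, 8.21% of those in Stat5a transcripts and 10.99% of those in Stat5b transcripts, so reads there may be split, lost or given to either gene. Stat5a also overlaps Stat3 on the other strand by 72 exon bases.

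The mRNA of the ligand showed no call in any comparison. Il2 (ENSMUSG00000027720, chromosome 3, 37120523 to 37125959) stood at 20.2, 26.0 and 21.02 CPM in EKO_exo replicates 1, 2 and 3, at 22.3, 22.9 and 22.7 CPM in WT_exo and at 20.1, 22.7 and 24.6 CPM in PBS. The groups overlapped, and the spread within EKO_exo, with EKO_exo replicate 2 the highest of all libraries, was wider than any difference between group means. Its log2 fold change was -0.0054 ± 0.107 (SE; 95% interval -0.23 to 0.21; adjusted p = 0.990) in EKO_exo against PBS, and 0.011 ± 0.107 (-0.21 to 0.23; adjusted p = 0.982) in WT_exo against PBS. These intervals span falls and rises of about the size seen in other members, so a change of that size in Il2 was not detectable here. Its transcripts share 138 of their 1095 stretches of 50 bases with Ntan1, an enzyme gene on another chromosome. Ntan1 also read highest in EKO_exo replicate 2 (38.6 CPM, other libraries 32.6 to 35.95); its part in the Il2 values was not tested.

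Of the 3 receptor chains, Il2ra fell with either kind of exosome, Il2rg rose with exosomes of ApoE-deficient BMDM and Il2rb passed the test in neither comparison with PBS. Il2ra (ENSMUSG00000026770, chromosome 2, 11642807 to 11693193), the high-affinity chain, had 1769, 1888 and 1926 CPM in EKO_exo replicates 1 to 3, 1804, 1836 and 1853 CPM in WT_exo and 1994, 1991 and 1996 CPM in PBS. Every exosome library lay below every PBS library. The 3 PBS libraries were closer to each other (SD 2.67 CPM) than counting alone gives (8.24 CPM), so their agreement overstates the precision. Il2ra fell by 0.10 ± 0.026 on the log2 scale in EKO_exo against PBS (adjusted p = 0.0219) and by 0.12 ± 0.026 in WT_exo against PBS (adjusted p = 0.00365), or by 6.66% and 8.16%. The EKO_exo call was lost without EKO_exo replicate 1 (log2 fold change -0.065, adjusted p = 0.135), without EKO_exo replicates 1 and 3 together (0.232), without PBS replicate 1 (0.0705) or 2 (0.0820), and when only these groups were fitted (0.0535). The WT_exo call held in all 15 alternative fits, with an adjusted p of at most 0.0379.

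Il2rb (ENSMUSG00000068227, chromosome 15, 78479256 to 78495271), the beta chain that IL-2 and IL-15 receptors share, had 1215, 1246 and 1301 CPM in EKO_exo, 1177, 1212 and 1213.5 CPM in WT_exo and 1274, 1322 and 1239 CPM in PBS. The WT_exo libraries lay below all PBS libraries and the EKO_exo libraries overlapped them. The log2 fold change was -0.027 ± 0.029 in EKO_exo against PBS (adjusted p = 0.715) and -0.090 ± 0.029 in WT_exo against PBS (adjusted p = 0.0722). WT_exo against PBS was called in 6 of 15 alternative fits, with adjusted p from 0.0257 to 0.395; it was called without EKO_exo replicate 1 (0.0317) or 3 (0.0436) and without PBS replicate 3 (0.0293).

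Il2rg (ENSMUSG00000031304), the gamma chain shared by the receptors of IL-2, IL-4, IL-7, IL-9, IL-15 and IL-21, had the largest log2 difference between the exosome groups among the 10 genes. It had 262.4, 259.3 and 270.5 CPM in EKO_exo, 239.9, 237.5 and 238.5 CPM in WT_exo and 232.3, 247.3 and 239.6 CPM in PBS. Every EKO_exo library lay above every other library, and WT_exo lay within the range of PBS. The log2 fold change was 0.14 ± 0.037 in EKO_exo against PBS (adjusted p = 0.0240) and -0.0064 ± 0.037 in WT_exo against PBS (adjusted p = 0.971). The direct test of EKO_exo against WT_exo gave 0.15 ± 0.037 with an unadjusted p of 0.000523 and an adjusted p of 0.265, which is no call. DESeq2 called it (adjusted p = 0.0140), and the other alternatives gave adjusted p from 0.127 to 0.888. The call against PBS was lost without EKO_exo replicate 3 (adjusted p = 0.0937) and without PBS replicate 1 (0.149) or 3 (0.0712), and without EKO_exo replicates 1 and 3 together (0.360). In the same comparison with PBS, 3 of 8 T cell markers rose, Cd3e among them (0.12 ± 0.034, adjusted p = 0.0361), and 3 of 8 B cell markers rose; in EKO_exo against WT_exo 1 B cell marker rose, the light chain gene Igkc (0.43, adjusted p = 0.00219). B cells also express Il2rg; the part of cell composition in its rise was not tested.

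**Figure D2:**
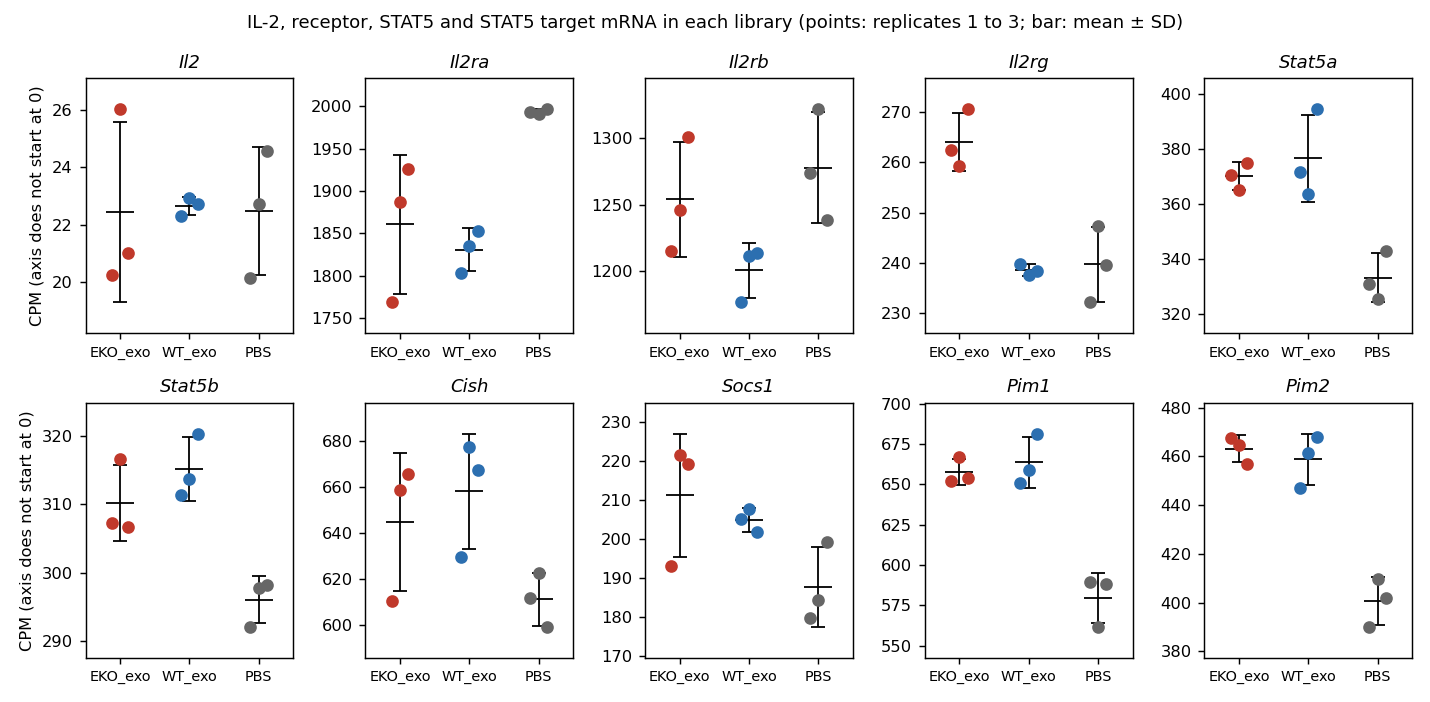
CPM of the 10 mRNAs in every library, with EKO_exo, WT_exo and PBS from left to right; points are replicates 1 to 3 and bars the mean ± SD, and the axes do not start at 0. Il2ra sits below PBS and Stat5a, Stat5b, Pim1 and Pim2 sit above PBS in all 6 exosome libraries, while Il2rg in EKO_exo sits above the libraries of both other groups.

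Of the transcription factor genes, Stat5a rose with either kind of exosome and Stat5b did not pass the test. Stat5a (ENSMUSG00000004043) stood at 370.6, 364.9 and 375.0 CPM in EKO_exo, 371.4, 363.7 and 394.4 CPM in WT_exo and 330.8, 325.4 and 343.0 CPM in PBS. It rose by 0.15 ± 0.036 log2 in EKO_exo against PBS (adjusted p = 0.00975) and by 0.18 ± 0.036 in WT_exo against PBS (adjusted p = 0.00228). Every exosome library lay above every PBS library. The EKO_exo call was lost without PBS replicate 1 (adjusted p = 0.0512) or 2 (0.0850) and without EKO_exo replicates 1 and 3 together (0.229). The WT_exo call held in all 15 alternative fits, with an adjusted p of at most 0.0445. Stat5b (ENSMUSG00000020919) stood at 307.2, 316.5 and 306.7 CPM in EKO_exo, 311.3, 313.6 and 320.3 CPM in WT_exo and 292.1, 297.8 and 298.3 CPM in PBS, again with no overlap of exosome and PBS libraries. Its log2 fold changes of 0.067 ± 0.034 (adjusted p = 0.317) and 0.090 ± 0.034 (adjusted p = 0.151) did not pass the test over all genes; DESeq2 called it in WT_exo against PBS (adjusted p = 0.0381). Per kilobase, Stat5a was at 0.927 ± 0.0283 of the level of Stat5b in EKO_exo, 0.928 ± 0.0279 in WT_exo and 0.874 ± 0.0227 in PBS, and these ratios did not overlap between exosome and PBS libraries.

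The 4 STAT5 targets were read beside their promoters. RefSeq gave windows from 250 bases before to 50 after a start for 9 of the 10 genes (build GRCm38.p6; Il2rb has none in the table), with 2 starts each for Stat5a, Stat5b and Pim1. Each window was searched for the palindrome TTCNNNGAA, the core of STAT5 binding sites, which reads the same on both strands. Of 32851 such windows of all genes 8.30% held the motif and 0.457% held it at least 2 times. Cish held 2 copies, starting at bases 1 and 12 counted from the annotated start; no window of another member held this sequence. The window of Cish is shown because it alone carries the motif, and those of Pim1 (the more upstream of its 2 starts), Pim2 and Il2ra because these genes moved in opposite directions; capitals mark TTCNNNGAA.
Cish, plus strand of chr9:107296409-107296708: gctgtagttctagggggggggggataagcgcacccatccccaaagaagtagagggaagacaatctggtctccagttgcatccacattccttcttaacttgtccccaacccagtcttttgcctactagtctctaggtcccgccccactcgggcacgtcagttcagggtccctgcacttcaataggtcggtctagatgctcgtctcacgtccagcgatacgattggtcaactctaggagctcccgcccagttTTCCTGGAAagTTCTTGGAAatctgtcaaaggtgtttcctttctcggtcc
Pim1, plus strand of chr17:29490535-29490834: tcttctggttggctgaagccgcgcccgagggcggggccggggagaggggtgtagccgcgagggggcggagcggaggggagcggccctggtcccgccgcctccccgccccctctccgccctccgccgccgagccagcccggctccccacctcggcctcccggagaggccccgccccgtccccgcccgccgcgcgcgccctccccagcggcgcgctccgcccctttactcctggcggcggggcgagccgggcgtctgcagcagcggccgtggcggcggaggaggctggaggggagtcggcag
Pim2, plus strand of chrX:7878056-7878355: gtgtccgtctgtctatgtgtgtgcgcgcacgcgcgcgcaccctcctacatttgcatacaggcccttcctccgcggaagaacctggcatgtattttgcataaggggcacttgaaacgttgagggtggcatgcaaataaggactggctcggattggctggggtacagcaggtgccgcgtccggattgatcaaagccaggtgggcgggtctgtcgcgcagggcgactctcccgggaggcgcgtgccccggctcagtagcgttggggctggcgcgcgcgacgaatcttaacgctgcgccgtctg
Il2ra, plus strand of chr2:11642542-11642841: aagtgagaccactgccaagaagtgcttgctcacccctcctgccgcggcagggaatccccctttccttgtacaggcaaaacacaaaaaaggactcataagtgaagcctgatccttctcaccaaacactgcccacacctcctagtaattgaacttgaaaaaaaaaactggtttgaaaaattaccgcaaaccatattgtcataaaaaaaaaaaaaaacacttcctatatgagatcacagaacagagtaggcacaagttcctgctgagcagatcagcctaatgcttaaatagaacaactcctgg
A match is a description of the letters, and its absence from a short window says nothing of sites elsewhere in a gene. The only member with the motif in its window, Cish, was not the one that moved most.

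Cish (ENSMUSG00000032578, chromosome 9, 107296026 to 107302784), a feedback inhibitor that binds activated cytokine receptors, had 610.5, 658.7 and 665.6 CPM in EKO_exo, 629.7, 677.3 and 667.5 CPM in WT_exo and 611.7, 622.4 and 599.1 CPM in PBS. Its exons overlap those of the antisense transcripts Gm17041 by 479 bases and Gm17040 by 261 bases, which held 1173 and 237 counts over all libraries, against 169327 for Cish. EKO_exo replicate 1 lay within the PBS range, and the other 5 exosome libraries lay above it. The log2 fold change was 0.078 ± 0.034 in EKO_exo against PBS (adjusted p = 0.230) and 0.11 ± 0.034 in WT_exo against PBS (adjusted p = 0.0742), neither a call. Without EKO_exo replicate 1 the EKO_exo difference was 0.12 ± 0.033 (adjusted p = 0.0469), and WT_exo against PBS was called in 5 of 15 alternative fits, among them those without EKO_exo replicate 1 (0.0262) and without WT_exo replicate 1 (0.0411).

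Socs1 (ENSMUSG00000038037, chromosome 16, 10782240 to 10785536), which blocks JAK kinases, had 193.1, 221.5 and 219.2 CPM in EKO_exo, 205.0, 207.8 and 201.9 CPM in WT_exo and 179.7, 184.4 and 199.3 CPM in PBS. EKO_exo replicate 1 lay below PBS replicate 3, so these groups overlapped, whereas all WT_exo libraries lay above PBS. Socs1 rose by 0.17 ± 0.048 log2 in EKO_exo against PBS (adjusted p = 0.0353). This call held in 8 of 16 alternative fits and was lost without any one of EKO_exo replicates 2 and 3, PBS replicates 1 and 2 and the 3 WT_exo libraries, and when only these groups were fitted, with an adjusted p of up to 0.213. In WT_exo against PBS the value was 0.13 ± 0.048 (adjusted p = 0.158), with a call in 1 of 15 alternative fits.

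Pim1 and Pim2, serine/threonine kinases that promote survival and growth, rose with either kind of exosome and in every alternative fit. Pim1 (ENSMUSG00000024014, chromosome 17, 29490753 to 29496112) had 652.1, 667.1 and 653.9 CPM in EKO_exo, 650.5, 659.0 and 681.3 CPM in WT_exo and 589.2, 561.6 and 587.9 CPM in PBS. Pim2 (ENSMUSG00000031155, chromosome X, 7878262 to 7883432) had 467.7, 464.6 and 456.9 CPM in EKO_exo, 447.1, 461.4 and 467.8 CPM in WT_exo and 390.1, 409.7 and 401.8 CPM in PBS. No exosome library overlapped a PBS library for either gene. Pim1 rose by 0.18 ± 0.030 log2 in EKO_exo against PBS (adjusted p = 0.000305) and by 0.20 ± 0.030 in WT_exo against PBS (adjusted p = 0.000112), or by 13.5% and 14.5%. Pim2 rose by 0.21 ± 0.032 (adjusted p = 0.000133) and by 0.20 ± 0.032 (adjusted p = 0.000241), or by 15.6% and 14.5%. These are small changes in size: of all genes tested in EKO_exo against PBS, 34.0% had a log2 fold change at least as large in size as that of Pim2 and 38.3% as that of Pim1. Those shares take in genes of every level, called or not. Of the 14684 genes, 7212 lay at 20 CPM or more, and 5.08% of all were called. Over all alternatives the log2 fold changes of both genes stayed between 0.16 and 0.23, with adjusted p of at most 0.00774. Pim1 has an antisense neighbour, Gm26885, that overlaps 488 of its exon bases; it held 894 counts over all libraries against 168162 for Pim1.

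Over the 10 genes, 5 rose and 1 fell in EKO_exo against PBS, and 4 did not pass the test. Of all genes tested 5.08% were called in that comparison, 2.21% higher and 2.87% lower, and 9.07% of genes at 20 CPM or more, the range in which all 10 lie. In WT_exo against PBS 3 rose, 1 fell and 6 did not pass, beside 4.97% of all genes, 1.83% higher and 3.14% lower, and 8.65% at 20 CPM or more. The members' counts were above these shares, but the genes had been picked with earlier results of these data known and they share regulators. The median log2 fold change of the 10 was 0.11 in EKO_exo and 0.10 in WT_exo against PBS, where that of all genes was 3.78e-05 and 0.0031. Both comparisons use the same PBS libraries. Without PBS replicate 1 only 2 members were called in EKO_exo against PBS, and without PBS replicate 2, or without EKO_exo replicates 1 and 3 together, 3.

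The libraries of 6 members did not overlap between EKO_exo and PBS, where 20.5% of all genes tested did not. For WT_exo and PBS this held for 8 members, where 22.2% of all genes did not overlap. Between the exosome groups it held for 2, Il2rb and Il2rg, both higher in EKO_exo, beside 11.8% of all genes.

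**Figure D3:**
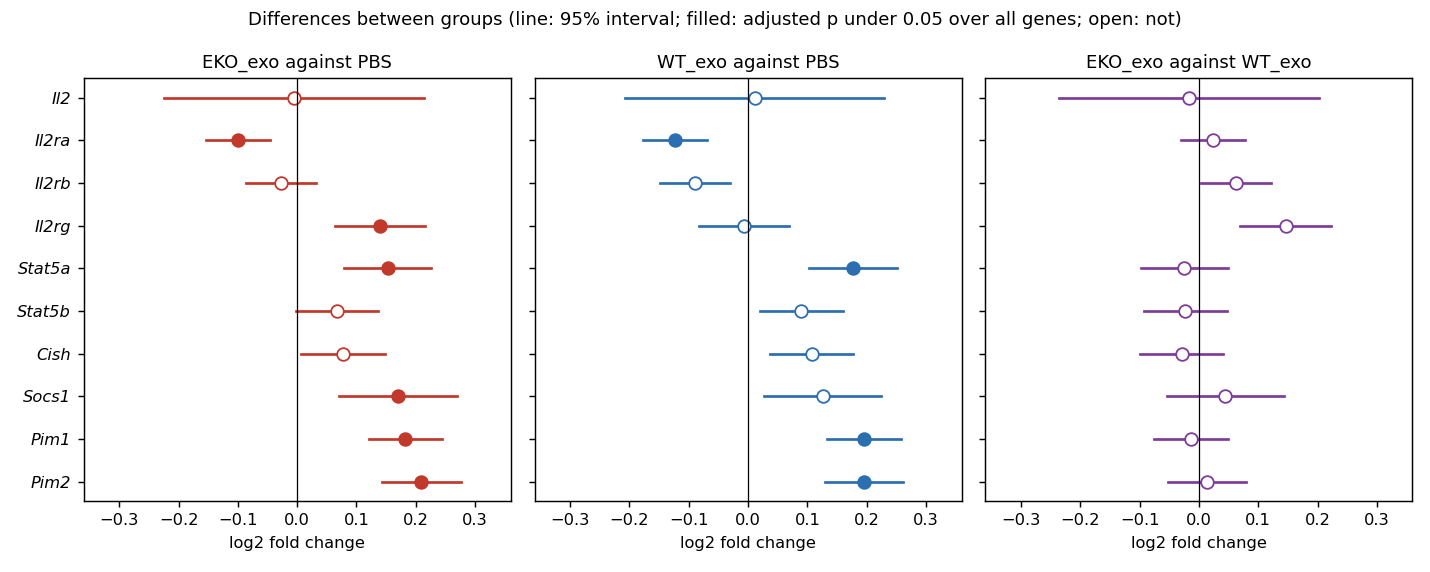
Log2 fold change of the 10 genes with its 95% interval in EKO_exo against PBS, WT_exo against PBS and EKO_exo against WT_exo; filled points passed the adjusted p of 0.05 over all genes. Against PBS Il2ra lies left of 0 and Stat5a, Pim1 and Pim2 right of it with either exosome, and no member passed between the exosome groups.

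The receptor chains and the STAT5 targets did not move as one. With exosomes of wild-type BMDM Il2ra (-0.12) and Il2rb (-0.090, not called) had negative log2 fold changes and all 4 targets positive ones, from 0.11 to 0.20. The third chain, Il2rg, at -0.0064 ± 0.037, had no clear direction and changed sign without PBS replicate 2 (0.016). With exosomes of ApoE-deficient BMDM the targets lay between 0.078 and 0.21, while the chains ranged from -0.10 for Il2ra to 0.14 for Il2rg. Of the 4 targets, Pim1 and Pim2 passed the test in both comparisons, Socs1 in EKO_exo and Cish in neither. Il2ra, a STAT5 target itself, fell in both. The members were also set against Il2ra within each library, as a ratio of levels per kilobase, which no scaling of library sizes can change. Relative to Il2ra, Pim1 stood at 0.577 to 0.626 in EKO_exo, 0.610 to 0.624 in WT_exo and 0.479 to 0.502 in PBS. Pim2 stood at 0.485 to 0.540, 0.507 to 0.516 and 0.400 to 0.421 in the same order. Cish stood at 0.307 to 0.310, 0.311 to 0.328 and 0.267 to 0.278, and Socs1 at 0.214 to 0.230, 0.214 to 0.223 and 0.177 to 0.196. For each of the 4 targets, every exosome library lay above every PBS library on this ratio. All these ratios share Il2ra, which was lower in every exosome library, so they are not separate from its fall: by their own CPM, Cish and Socs1 overlapped between EKO_exo and PBS. Il2rb relative to Il2ra overlapped between EKO_exo (0.879 to 0.915), WT_exo (0.869 to 0.879) and PBS (0.827 to 0.885). Il2rg relative to Il2ra separated all 3 groups, at 0.329 to 0.355 in EKO_exo, 0.308 to 0.318 in WT_exo and 0.279 to 0.297 in PBS. By its own CPM Il2rg in WT_exo lay within the PBS range, so that the distance between WT_exo and PBS on this ratio comes from Il2ra. These ratios are given as descriptions, with no test.

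Between exosomes of ApoE-deficient and of wild-type BMDM, none of the 10 genes was called by edgeR, where 5 of all genes tested (0.0341%) were. At an unadjusted p under 0.05 there were 2, Il2rb and Il2rg, beside 1039 of all 14684 genes tested. DESeq2 called 1 of the 10, Il2rg. For Pim1 the log2 fold change was -0.013 ± 0.030, with a 95% interval from -0.075 to 0.049, and for Pim2 0.013 ± 0.032, from -0.053 to 0.080. Il2ra was at 0.023 ± 0.026, from -0.030 to 0.077, and Stat5a at -0.025 ± 0.036, from -0.098 to 0.049. These intervals leave out, for Il2ra, Pim1, Pim2 and Stat5a, a difference as large as the one either exosome showed against PBS. Cish was at -0.029 ± 0.034, Stat5b at -0.023 ± 0.034, Socs1 at 0.044 ± 0.048 and Il2 at -0.016 ± 0.107. Il2rb, at 0.063 ± 0.029, had an adjusted p of 0.678 in that comparison.

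The genes around this pathway were read from 6 lists. Their counts of calls stand beside 5.08% of all genes tested in EKO_exo against PBS and 4.97% in WT_exo against PBS. Among genes at 20 CPM or more these shares were 9.07% and 8.65%. A list with 1 call among 9 or 12 tested genes lies near the latter shares. No test over a list was run. Of 18 further STAT5 targets that IL-2 raises, 4 rose and 1 fell in EKO_exo against PBS, and 4 rose and 2 fell in WT_exo against PBS. Those that rose with either exosome were Bcl2l1, which encodes the survival factor BCL-XL (0.16 ± 0.041 in EKO_exo, 0.18 ± 0.041 in WT_exo), Myc (0.14 ± 0.032 and 0.12 ± 0.032) and Ccnd2, cyclin D2 (0.12 ± 0.028 and 0.13 ± 0.028). Mcl1, another survival factor of the BCL2 family, rose in EKO_exo (0.16 ± 0.036), and Lta, lymphotoxin alpha, in WT_exo (0.15 ± 0.044). Ccnd3, cyclin D3, fell with either exosome (-0.17 ± 0.039 and -0.20 ± 0.039), and Il4ra, the IL-4 receptor alpha chain, fell in WT_exo (-0.16 ± 0.032). The median log2 fold change of the list was 0.023 in EKO_exo and 0.0086 in WT_exo. Among further genes of this list that did not pass, Socs2 was at 0.13 ± 0.056 and 0.14 ± 0.056, Socs3 at -0.10 ± 0.050 and -0.11 ± 0.050 and Pim3 at -0.021 ± 0.060 and 0.023 ± 0.060 in EKO_exo and WT_exo against PBS. The largest in size among those not called were, in the same order, Gzmb at -0.25 ± 0.089 and -0.21 ± 0.088 and Prdm1 at -0.22 ± 0.12 and -0.27 ± 0.12. Foxp3, the regulatory T cell factor that STAT5 helps to induce, was at 0.12 ± 0.043 (adjusted p = 0.114) and 0.0084 ± 0.043 (adjusted p = 0.967).

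Of 6 genes that IL-2 or STAT5 lowers, 1 rose in EKO_exo and 0 in WT_exo against PBS; it was Tcf7, a transcription factor of naive and memory T cells, at 0.14 ± 0.028 (adjusted p = 0.00165). The medians were 0.12 and 0.089. Of 12 genes for the kinases, adaptors and PI3K subunits below the receptor, Pik3cd, the PI3K catalytic subunit p110 delta, rose with either exosome (0.14 ± 0.027, adjusted p = 0.00135, and 0.17 ± 0.027, adjusted p = 0.000105). Jak3, the kinase bound to the gamma chain, fell in WT_exo (-0.15 ± 0.041, adjusted p = 0.0378). Jak1, at 0.066 ± 0.032 and 0.064 ± 0.032, did not pass. The medians of that list were 0.044 and 0.012.

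A list of 14 further inhibitors of cytokine receptor signalling held SOCS, PIAS and PTPN genes that act on JAK and STAT proteins and also Dusp5, Dusp6 and Cblb, which act on other branches. Of the 14, 2 rose in EKO_exo and 4 in WT_exo against PBS, and 0 fell. Both that rose in EKO_exo, Dusp5 and Cblb, are of the other branches, and they rose in WT_exo too. Dusp5, a phosphatase of the MAP kinase ERK that IL-2 induces, rose in EKO_exo against PBS (0.28 ± 0.041, adjusted p = 5.5e-05) and in WT_exo against PBS (0.28 ± 0.041, adjusted p = 5.8e-05). Cblb, a ubiquitin ligase that restrains T cell activation, rose by 0.13 ± 0.035 and 0.16 ± 0.035. Of the SOCS, PIAS and PTPN genes on this list, Socs5 (0.32 ± 0.093) and the phosphatase gene Ptpn6 (0.11 ± 0.032) rose in WT_exo, and none passed in EKO_exo. Socs1, which rose in EKO_exo (0.17 ± 0.048), and Cish are not on the list because they are members. The medians were 0.050 and 0.092.

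Of 10 genes for other cytokines and receptors of the common gamma chain family, 9 were tested and 0 rose. Il21, a cytokine gene of activated helper cells, fell to 11.4 ± 0.607 CPM in EKO_exo and 12.6 ± 3.65 CPM in WT_exo, against 18.7 ± 3.40 CPM in PBS (SD, n = 3 each). Its log2 fold changes were -0.72 ± 0.157 (adjusted p = 0.00530) and -0.56 ± 0.155 (adjusted p = 0.0312), larger in size than any among the 10 genes. Il4ra, named above, is on this list too. Il7r was at 0.044 ± 0.088 and 0.038 ± 0.087, and Il21r at -0.085 ± 0.040 and -0.036 ± 0.039. The medians of the tested genes were -0.10 and -0.16.

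The last list held 20 factors that transcribe the Il2 gene or act on the decay of its mRNA, of which 6 rose and 0 fell in EKO_exo and 3 rose and 0 fell in WT_exo against PBS, while Il2 itself was not called. Egr1, an immediate early transcription factor, rose by 0.32 ± 0.055 (adjusted p = 0.000449) and 0.28 ± 0.054 (adjusted p = 0.00127). Rel, the NF-kB subunit c-Rel, rose by 0.18 ± 0.041 and 0.14 ± 0.041. Zfp36l1 and Zfp36l2, which encode proteins that bind AU-rich elements and speed mRNA decay, rose in EKO_exo by 0.20 ± 0.039 and 0.16 ± 0.037. Nfatc1 rose in EKO_exo (0.16 ± 0.040) and Nfkb1 with either exosome (0.10 ± 0.029 and 0.12 ± 0.029). The medians were 0.10 and 0.058. In EKO_exo against WT_exo, 0 genes of the 6 lists were called by edgeR or DESeq2.

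Several of these calls depended on single libraries or on a setting of the fit. In EKO_exo against PBS, Pik3cd, Dusp5 and Egr1 were called in all 16 alternative fits. Without PBS replicate 1 the calls of Bcl2l1, Cblb, Nfatc1, Rel, Nfkb1 and Zfp36l2 were lost, without PBS replicate 2 those of Mcl1, Ccnd3, Cblb and Nfkb1, and without PBS replicate 3 those of Bcl2l1, Myc, Ccnd2, Cblb, Il21, Nfatc1 and Nfkb1. Bcl2l1, Myc and Ccnd2 were lost without EKO_exo replicate 2, Bcl2l1, Nfatc1 and Nfkb1 without EKO_exo replicate 3, and Cblb and Nfkb1 without EKO_exo replicate 1. Nfkb1 was also lost without any 1 WT_exo library, with the replicate block, with no filter on low counts and when only the compared groups were fitted. Without EKO_exo replicates 1 and 3 together Mcl1, Tcf7, Cblb, Il21, Nfatc1, Rel, Nfkb1, Zfp36l1 and Zfp36l2 were lost. The largest adjusted p among these losses was 0.633, for Nfkb1. In WT_exo against PBS, Ccnd3, Il4ra, Pik3cd, Dusp5 and Egr1 were called in all 15. Without PBS replicate 1 Myc, Lta, Ptpn6, Socs5, Il21, Rel and Nfkb1 were lost, without PBS replicate 2 Lta, Jak3, Ptpn6, Socs5 and Rel, and without PBS replicate 3 Bcl2l1, Myc, Lta, Jak3, Ptpn6, Il21, Rel and Nfkb1. Without WT_exo replicate 1 Myc, Lta, Jak3, Ptpn6, Socs5, Cblb, Il21 and Rel were lost, without WT_exo replicate 2 Myc, Ccnd2, Lta, Ptpn6, Socs5, Il21 and Nfkb1, and without WT_exo replicate 3 Jak3, Ptpn6, Socs5, Rel and Nfkb1. Lta, Ptpn6 and Rel were also lost without EKO_exo replicate 2 and with the replicate block, and Ptpn6 and Rel with no filter on low counts. The largest adjusted p among these losses was 0.365, for Lta.

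**Figure D4:**
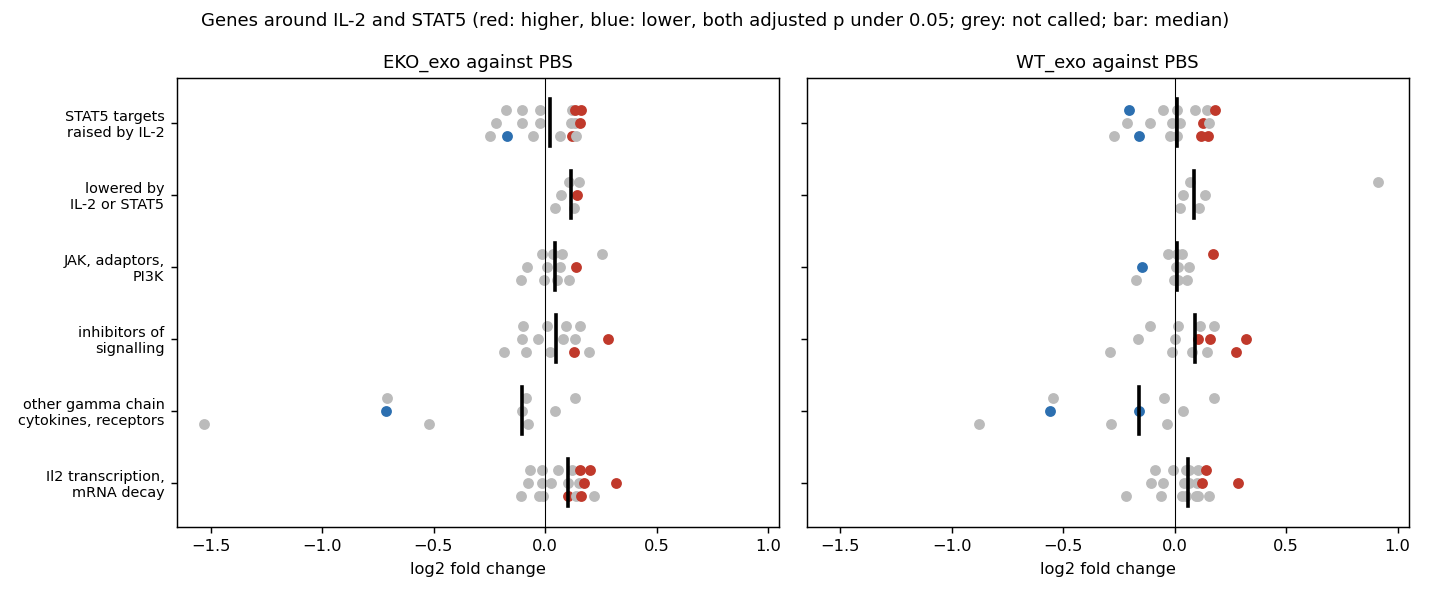
Log2 fold change of the tested genes of 6 lists around IL-2 and STAT5 in EKO_exo against PBS (left) and WT_exo against PBS (right); red and blue points passed the test as higher and lower, grey points did not, and bars are medians. Most called genes lie right of 0, and the called gene furthest left in both panels is Il21.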

How the data were processed

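Messenger RNA of 9 libraries was sequenced, 3 for each of EKO_exo, WT_exo and PBS. The authors deposited a table of raw read counts for each gene and library, not normalized. Per the submitters' processing notes, STAR 2.7.5c and the mouse build GRCm38 were used; the counting tool, its strand setting and its annotation were not stated in the sources used here. Identifiers were matched to the GENCODE M21 annotation, and 55450 of 55536 had a symbol. Exon lengths and overlaps came from the same annotation, promoter windows from RefSeq on GRCm38.p6, and shared sequence from stretches of 50 bases of the transcripts.

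Groups and replicate numbers came from titles and treatment labels. The replicates are called biological, but no label ties them to separate mice, and a p-value therefore refers to the spread among these samples, which may be technical. Within groups, the chi-square between library pairs was 5.15 to 9.32 times its degrees of freedom, above sampling noise.

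In R 4.3.3, edgeR 4.0.16 (with limma 3.58.1) kept genes by filterByExpr (minimum count 10, minimum total 15), which left 14684 genes with at least 99.92% of each library's counts. Library sizes were scaled by TMM, 1 model with 3 groups was fitted to all 9 libraries, and contrasts were tested by the quasi-likelihood F test with 6 residual and 21.1 prior degrees of freedom. Benjamini-Hochberg adjustment ran over all genes tested, with calls at an adjusted p under 0.05. CPM use the TMM-scaled library sizes, and fold changes are given with their SE. Principal components used genes of at least 5 CPM on average. The alternatives were RLE scaling, DESeq2 1.42.0, no filter, a mean of at least 5 CPM, a replicate block, a fit of the compared groups alone, leaving out each library, and leaving out EKO_exo replicates 1 and 3 together. The fit was also run on data with known changes, simulated from its own estimates. The outcome of that run is not given here.

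All 10 members were named. Of each wider list all called genes were named if there were at most 4, and otherwise the 4 with the smallest p; the further genes of those lists given by name were picked after their values were seen. The members and lists were chosen with earlier results of these data known.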

Additional observations from a re-analysis of the deposited data

How the results depend on the processing

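Of the 470 member log2 fold changes recomputed under the alternatives, 417 kept their direction and side of the threshold, 20 fell below it, 15 passed it and 18 changed sign. Pim1 and Pim2 against PBS, in EKO_exo and in WT_exo, and Il2ra and Stat5a in WT_exo against PBS kept their calls in every one. RLE scaling moved the median of all genes by at most 0.0031 log2. Unless a cause follows from fewer libraries or another set of tested genes, it was not tested.

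In EKO_exo against PBS, 746 genes, 6 members and 16 wider list genes were called. Without EKO_exo replicates 1 and 3 together these were 249, 3 and 8, and leaving out 1 library gave 375 to 687 genes, 2 to 6 members and 11 to 16 list genes. In WT_exo against PBS, 730 genes, 4 members and 16 list genes were called; leaving out 1 library gave 399 to 870, 4 to 6 and 8 to 17, and DESeq2 and the fit of only the compared groups called 7 members each. In EKO_exo against WT_exo, 5 genes and 0 members were called; DESeq2 called 32 genes and 1 member, no filter 28 genes, a mean of at least 5 CPM 9 genes, EKO_exo replicates 1 and 3 left out together 0 genes, and leaving out 1 library 0 to 6 genes and 0 members.

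Among the values that changed sign, those of Il2 moved most, to a size like that of Pim2. For Il2 in EKO_exo against PBS, leaving out 1 library gave -0.13 to 0.062 (positive if the library left out was EKO_exo 1, EKO_exo 3, PBS 2 or PBS 3), and without EKO_exo replicates 1 and 3 together 0.21. In WT_exo against PBS, Il2 ranged from -0.062 (without PBS replicate 1) to 0.078 and Il2rg from -0.029 to 0.016 (without PBS replicate 2). In EKO_exo against WT_exo, leaving out 1 library gave Il2 -0.14 to 0.052, Il2ra -0.0027 to 0.059, Stat5a -0.048 to 0.010, Cish -0.060 to 0.0089, Pim1 -0.027 to 0.0064 and Pim2 -0.0048 to 0.028. Without EKO_exo replicates 1 and 3 together that comparison gave Il2 0.20, Stat5b 0.0067, Cish 0.0015 and Pim1 0.0077.

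No shared effect of the replicate number was visible in the counts. Same-numbered libraries of different groups correlated at -0.0718 to 0.0170 over 9 pairs, and differently numbered ones at -0.0913 to 0.144 over 18 pairs. With 3 libraries in each group, such correlations cannot show whether same-numbered cultures had a common source. With the replicate block 614 genes, 6 members and 15 list genes were called in EKO_exo against PBS, 609, 4 and 13 in WT_exo against PBS, and 1, 0 and 0 in EKO_exo against WT_exo. Under the block the list calls of Nfkb1 in EKO_exo and of Lta, Ptpn6 and Rel in WT_exo were lost.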

Other observations

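Likeness to each gene was read as Pearson's r of log2 CPM over the 9 libraries among 9231 genes of at least 5 CPM, as a description in which all points share the group differences and the library sizes. Nearest to Il2ra were Cyp51, an enzyme of cholesterol synthesis (r = 0.984), Ssr1, a subunit of the endoplasmic reticulum translocon (0.976), and Tgm2, transglutaminase 2 (0.964), and 81 genes lay above 0.9. Nearest to Cish were Senp3 (0.931), Tmem8 (0.920) and Actb (0.918), with 6 genes above 0.9. Nearest to Il2 were Gba2 (0.957), Ndufa10 (0.902) and Trp53i13 (0.899), with 2 above 0.9.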
